A study of Mus musculus with 6 samples.

Results

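The circadian clock genes described here are 10 transcripts, Nr1d1, Nr1d2, Per1, Per2, Per3, Cry1, Cry2, Dbp, Tef and Clock, found by symbol among the 55359 genes of the deposited table. Each symbol matched 1 row, and all 10 genes had enough counts to be tested. The genes were chosen by measured values, the fold changes between the same 2 groups, so their values in that comparison are given as a description, and no test on them is used as support. The material was whole lung of C57 mice at embryonic day E18.5, shortly before birth, read by RNA-seq. Of the embryos, 3 had the genotype label Prmt5 knockdown, and they were set against 3 with the label WT, wild type. The series text places the loss of Prmt5 in the mesenchyme, the connective tissue layer of the lung, through Dermo1, another name of Twist2, and calls it a knockout. The labels name no allele, and they do not say whether the embryos shared a litter or at what hour the lungs were taken. Any p-value below thus rests on the scatter among 6 samples whose independence is not stated.

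The molecular clock is a feedback loop of transcription. The proteins CLOCK and BMAL1 (gene Arntl) bind E-box motifs and switch on the Per and Cry genes, whose proteins return to block CLOCK and BMAL1. A second loop runs through the nuclear receptors REV-ERB alpha and beta (Nr1d1 and Nr1d2), which CLOCK and BMAL1 also switch on and which repress Arntl, Npas2 and Nfil3 through sites shared with the activating ROR receptors. Dbp and Tef encode PAR bZIP activators that carry the rhythm to D-box motifs of output genes and of Per genes. In the adult mouse lung the clock is known to set the time of day of inflammatory responses, and club cells of the airway are among the cells that carry it. In Arabidopsis and Drosophila, loss of Prmt5 is known to alter daily rhythms through the splicing of clock transcripts.

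The promoter windows of a few of these genes show the letters through which the loop is known to work. They are RefSeq sequences of build GRCm38.p6, run from 250 bases before an annotated start to 50 bases after it, and were matched by symbol for 9 of the 10 genes. The motifs searched, on both strands, were the E-box CACGTG, the E′-box CACGTT or AACGTG, the D-box TTATGTAA, TTACATAA or TTACGTAA, the ROR and REV-ERB response element TAGGTCA or TGACCTA, and the CRE, TGACGTCA. None of these motifs contains another. Capitals mark the matches in the sequences. Nr1d1 and Nr1d2 are shown because they differed most between the groups, Per1 and Cry1 because they hold an E-box and overlapped between the groups, and Per3 for its pair of D-boxes. Arntl, which is not among the 10 genes, is shown for the response element on which REV-ERB proteins are known to act.
Nr1d1 (chr11:98775328-98775627, minus strand): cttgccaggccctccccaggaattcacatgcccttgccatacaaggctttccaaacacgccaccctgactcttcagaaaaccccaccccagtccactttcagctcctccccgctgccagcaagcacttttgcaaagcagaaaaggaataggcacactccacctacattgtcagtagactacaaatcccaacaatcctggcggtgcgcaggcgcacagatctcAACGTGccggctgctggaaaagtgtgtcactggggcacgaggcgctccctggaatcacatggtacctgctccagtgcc
Nr1d2 (chr14:18239057-18239356, minus strand): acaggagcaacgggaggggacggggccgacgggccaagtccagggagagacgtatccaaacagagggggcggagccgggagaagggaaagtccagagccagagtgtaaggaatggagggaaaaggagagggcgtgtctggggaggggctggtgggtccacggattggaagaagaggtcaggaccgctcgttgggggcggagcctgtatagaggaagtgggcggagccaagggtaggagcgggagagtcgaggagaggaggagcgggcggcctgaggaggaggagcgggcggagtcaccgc
Per1, first start (chr11:69098699-69098998, plus strand): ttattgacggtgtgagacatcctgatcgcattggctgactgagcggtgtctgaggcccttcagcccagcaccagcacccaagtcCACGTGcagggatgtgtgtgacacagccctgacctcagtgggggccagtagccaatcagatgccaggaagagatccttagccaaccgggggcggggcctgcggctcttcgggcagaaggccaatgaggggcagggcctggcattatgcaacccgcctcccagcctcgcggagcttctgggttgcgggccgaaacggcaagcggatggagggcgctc
Cry1 (chr10:85185005-85185304, minus strand): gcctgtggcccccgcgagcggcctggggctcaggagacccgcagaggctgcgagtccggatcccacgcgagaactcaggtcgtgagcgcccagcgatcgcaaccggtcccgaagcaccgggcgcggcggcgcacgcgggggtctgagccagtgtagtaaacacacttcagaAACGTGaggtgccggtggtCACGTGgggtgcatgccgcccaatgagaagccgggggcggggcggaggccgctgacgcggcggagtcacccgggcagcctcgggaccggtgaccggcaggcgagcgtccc
Per3 (chr4:151044616-151044915, minus strand): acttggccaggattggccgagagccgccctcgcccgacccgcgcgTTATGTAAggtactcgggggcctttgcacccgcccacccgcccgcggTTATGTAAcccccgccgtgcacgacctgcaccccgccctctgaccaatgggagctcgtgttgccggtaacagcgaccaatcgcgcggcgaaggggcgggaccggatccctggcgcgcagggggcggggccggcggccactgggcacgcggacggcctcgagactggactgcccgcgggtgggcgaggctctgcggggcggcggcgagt
Arntl, second start (chr7:113207261-113207560, plus strand): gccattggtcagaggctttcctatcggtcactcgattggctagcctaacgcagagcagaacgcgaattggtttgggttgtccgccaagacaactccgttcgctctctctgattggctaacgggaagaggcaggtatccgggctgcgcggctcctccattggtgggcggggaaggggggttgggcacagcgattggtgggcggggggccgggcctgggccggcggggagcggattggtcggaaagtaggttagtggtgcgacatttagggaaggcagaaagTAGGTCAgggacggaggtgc

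An E-box was present in windows of 3 of the 9 matched genes, Per1, Cry1 and Tef, beside 8.09% of all 27025 genes with a window. In Per1 it began 166 bases before the first start, in Cry1 60 bases, and in Tef 127 and 138 bases before its pair of starts. An E′-box was found in Nr1d1, Cry1 and Cry2, beside 5.44% of all genes, and that of Nr1d1 began 28 bases before the start. Per3 held 2 D-boxes, 205 and 158 bases before its start, a motif present in 1.23% of all genes. Windows of Nr1d2, Dbp and Clock held none of the searched letters, and 0 of the 9 genes held the response element or the CRE, which 2.97% and 2.03% of all genes hold. The response element of Arntl began 30 bases after its second start. These matches describe the letters in a short window and say nothing of binding.

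**Figure D1:**
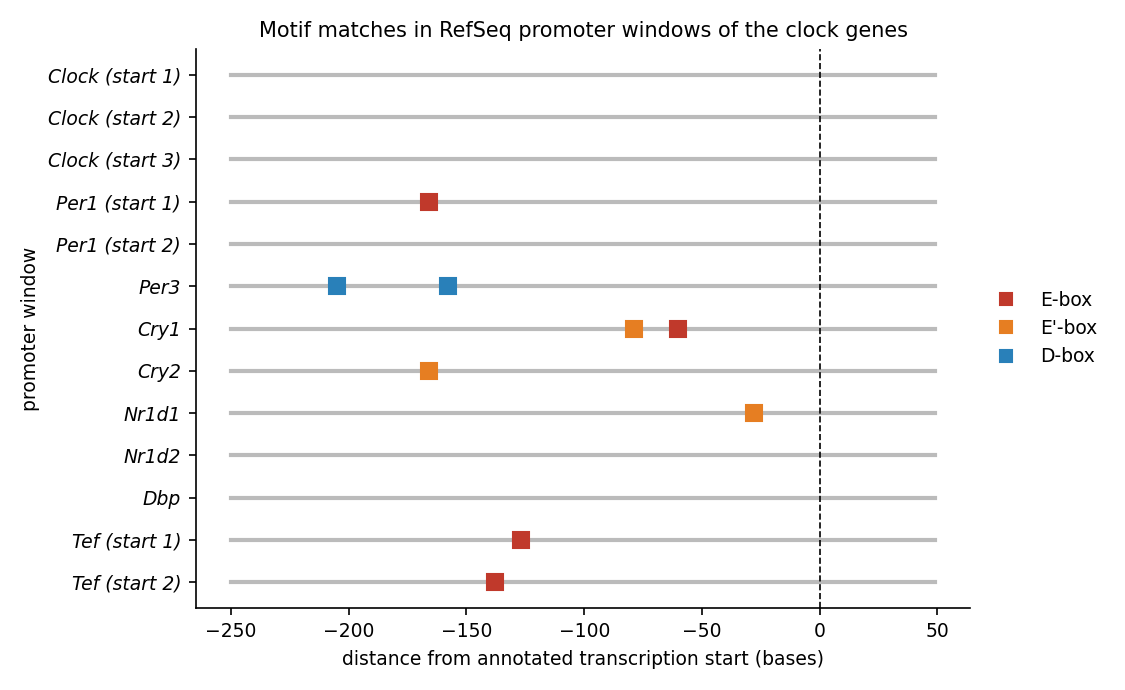
Motif matches in the RefSeq promoter windows of 9 clock genes, 1 row per annotated start, against the distance from that start in bases. Squares mark the first base of each E-box, E′-box or D-box; Per1, Cry1 and Tef hold E-boxes and Per3 holds 2 D-boxes.

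Total counts ranged from 14390202 to 19262837 in the knockdown-labelled libraries and from 14383415 to 16358478 in the WT libraries. Prmt5 itself was measured at 39.6, 47.8 and 46.9 CPM (counts scaled to library size, with TMM) in knockdown-labelled replicates 1 to 3, against 46.7, 47.3 and 48.3 CPM in WT replicates 1 to 3. Its difference on the log2 scale, -0.08 with a 95% confidence interval of -0.29 to 0.13, did not pass edgeR's quasi-likelihood test (Benjamini-Hochberg adjusted p = 0.682), so directions rest on the labels. The sum of 5 lung epithelial markers, most of it Sftpc, was 12213 to 15019 CPM in knockdown-labelled and 11870 to 14619 CPM in WT libraries, while Ager, an alveolar type I cell marker, was lower in every knockdown-labelled library (945 ± 83.9 CPM in knockdown-labelled and 1393 ± 120.5 CPM in WT lungs, SD, n = 3 each). Of 5 mesenchymal markers 3 (Tbx4, Pdgfra and Foxf1) were lower and 1 (Col1a1) was higher in every knockdown-labelled library, with sums of 2172 to 2598 CPM there and 2217 to 2413 CPM in WT. Of 12 heart muscle markers 11 were higher in every knockdown-labelled library, and their sum was 3314 to 12441 CPM there and 494 to 2823 CPM in WT libraries. All 4 endothelial markers were lower in every knockdown-labelled library, with sums of 1309 to 1690 CPM and 1980 to 2239 CPM in WT. Skeletal muscle markers, 5 in number, summed to 510 to 3861 CPM in knockdown-labelled and 84.5 to 1657 CPM in WT libraries. Thyroid and oesophagus markers summed to 8.14 to 1067 CPM in knockdown-labelled and 2.26 to 500 CPM in WT libraries. Thymus markers summed to 3.33 to 134 CPM in knockdown-labelled and 0.282 to 80.6 CPM in WT libraries. No heart muscle or endothelial marker was at 0 in a library. In RNA of a whole organ, fewer cells of a type and less RNA per cell cannot be told apart. By Xist and Y-linked counts, 1 knockdown-labelled and 2 WT embryos were female.

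The genes of the REV-ERB receptors were higher in the knockdown-labelled lungs, Clock was slightly lower, and the Per and Cry genes overlapped between the groups. Nr1d1, which encodes REV-ERB alpha, differed most of the 10, by 1.61-fold, and Nr1d2 differed by 1.37-fold. Across all 17728 genes tested, 6 passed an adjusted p of 0.05 in edgeR, or 0.0338%, and 0 of the 10 clock genes were among them. At an unadjusted p under 0.05 there were 2 higher clock genes, beside 8.48% of all genes, and 1 lower one, beside 8.52%. DESeq2 called the same 2 higher, Nr1d1 and Nr1d2, and 0 lower, beside 2.33% and 3.02% of the genes it tested. The 3 genes whose groups did not overlap were Nr1d1 and Nr1d2, with every knockdown-labelled library higher, and Clock, with every one lower. Among all genes tested 10.8% and 12.4% had such an order. Since the 10 genes were proposed from this comparison, nothing is read from these counts. The median log2 fold change of the 10 was 0.02, beside 0.01 over all genes tested.

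**Figure D2:**
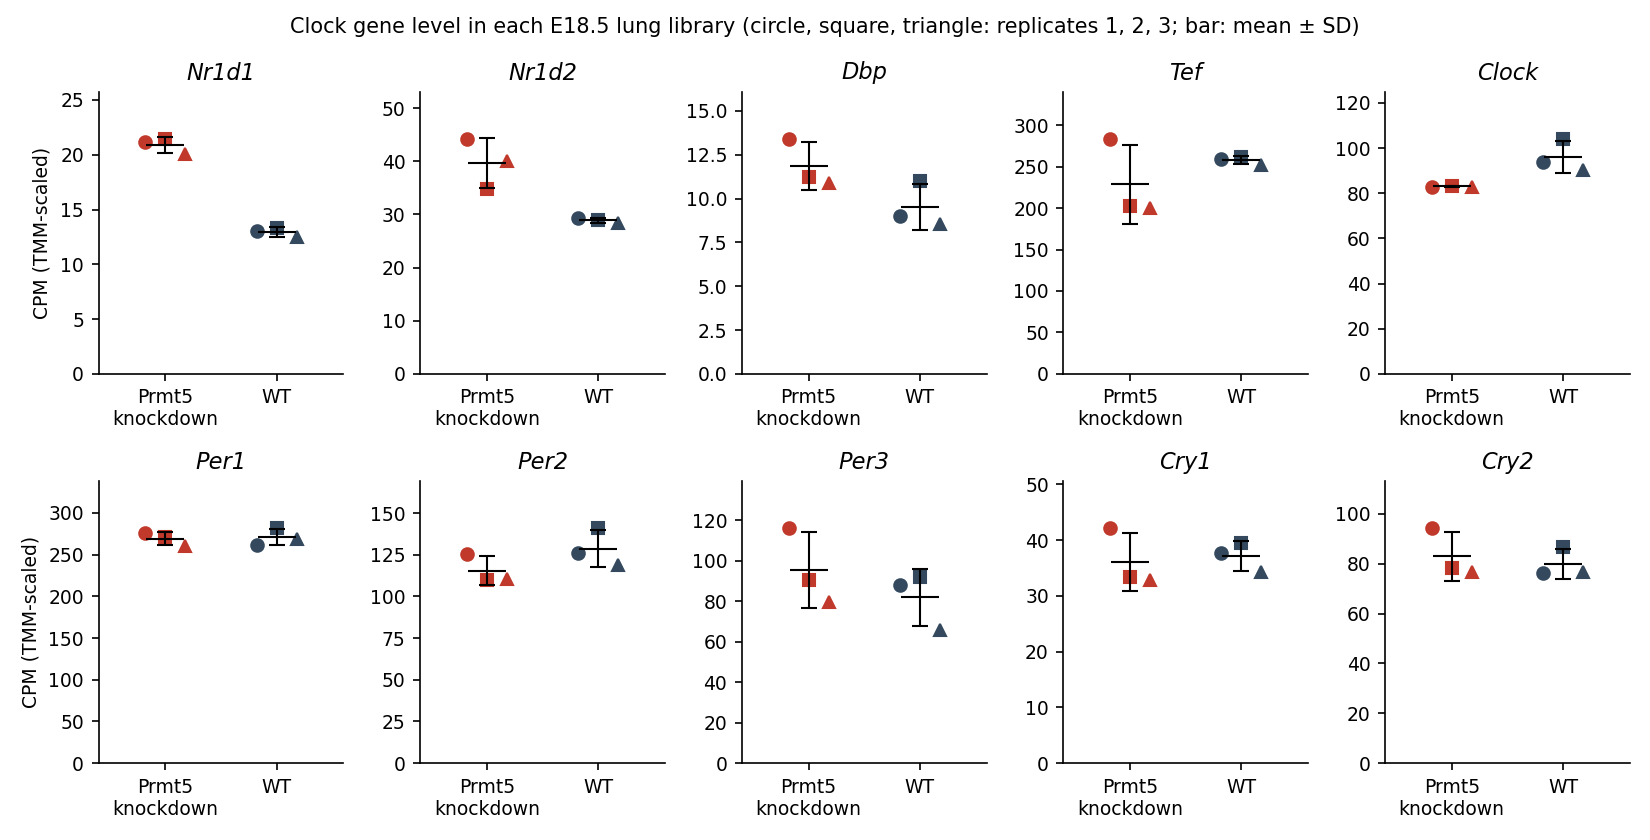
Level of each clock gene in CPM (TMM-scaled, axes from 0) in the 3 Prmt5 knockdown libraries (red) and the 3 WT libraries (dark blue), with mean and SD. Nr1d1 sits at 20.0 to 21.4 CPM in knockdown-labelled libraries and 12.5 to 13.3 CPM in WT libraries, while Per1 overlaps.

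Nr1d1 (ENSMUSG00000020889, chromosome 11, 98658758 to 98666159, minus strand in the table's coordinates, for which no build is given) had 21.2, 21.4 and 20.0 CPM in knockdown-labelled replicates 1 to 3, against 13.0, 13.3 and 12.5 CPM in WT replicates 1 to 3. All 3 knockdown-labelled libraries lay well above all 3 WT ones, and each group was narrow. The means were 20.9 ± 0.748 CPM in knockdown-labelled and 13.0 ± 0.430 CPM in WT lungs (SD, n = 3 each), and the log2 fold change was 0.69 (standard error 0.09, 95% confidence interval 0.47 to 0.91). Knockdown-labelled replicate 3 and WT replicate 3 were close in summed heart muscle markers, at 3314 CPM in the knockdown-labelled and 2823 CPM in the WT library, and their Nr1d1 levels were 20.0 CPM in the knockdown-labelled and 12.5 CPM in the WT library. Knockdown-labelled replicate 2 had the most heart muscle RNA, 12441 CPM, and an Nr1d1 level of 21.4 CPM. These are single libraries, and no label pairs them. With the heart muscle level as a covariate the log2 fold change of Nr1d1 was 0.70, but its edgeR adjusted p, given as a description, was 0.651 with the covariate and 0.0804 without it. That covariate, the mean log2 CPM of the heart muscle markers, was 7.04 to 9.34 in knockdown-labelled and 3.58 to 6.56 in WT libraries. The groups did not overlap in it, so values fitted with it, here and below, cannot separate heart muscle from group. The part of heart muscle in the Nr1d1 difference was not tested further. The 3′ part of Nr1d1 overlaps Thra, the gene of thyroid hormone receptor alpha on the opposite strand, by 1075 bases. Thra had 188, 198 and 184 CPM in knockdown-labelled and 169, 186 and 170 CPM in WT replicates 1 to 3. No strand setting is given for the counts, so reads of the shared stretch cannot be told apart.

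Nr1d2 (ENSMUSG00000021775), the gene of REV-ERB beta, had 44.2, 34.8 and 40.1 CPM in knockdown-labelled replicates 1 to 3, against 29.4, 29.0 and 28.5 CPM in WT replicates. The groups did not overlap, and the knockdown-labelled libraries were the more spread. Means were 39.7 ± 4.71 CPM in knockdown-labelled and 28.9 ± 0.450 CPM in WT lungs (SD, n = 3 each), and the difference on the log2 scale was 0.46 (95% confidence interval 0.23 to 0.69). The edgeR adjusted p of Nr1d2, given as a description, was 0.135, and 0.651 with heart muscle level as a covariate. Knockdown-labelled replicate 2 was the lowest of its group for Nr1d2 and the highest for Nr1d1, there only just above replicate 1. In WT, replicate 3 was the lowest for both genes. The 2 genes, with closely related products, thus shared the direction between the groups, and the order of the libraries within them only in part.

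Clock, the gene of the activator that gives the loop its name, had 82.9, 83.3 and 82.9 CPM in knockdown-labelled replicates 1 to 3, against 93.7, 104 and 90.4 CPM in WT replicates. Every knockdown-labelled library was below every WT one, and the 3 were nearly equal. The means were 83.0 ± 0.234 CPM in knockdown-labelled and 96.1 ± 7.08 CPM in WT lungs (SD, n = 3 each), and the difference on the log2 scale was -0.21 (95% confidence interval -0.38 to -0.04). It ranged from -0.25 to -0.15 with a library left out, and was -0.15 with heart muscle level as a covariate. The edgeR adjusted p of Clock, given as a description, was 0.230, and 0.800 with that covariate.

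The output factors Dbp and Tef had opposite signs. Dbp, whose transcript is known as one of the most strongly cycling in many tissues, was the lowest of the 10 in counts, with 13.4, 11.3 and 10.9 CPM in knockdown-labelled and 9.02, 11.02 and 8.52 CPM in WT replicates 1 to 3. WT replicate 2 reached the range of the knockdown-labelled libraries, so the groups overlapped. The log2 fold change was 0.32 (95% confidence interval -0.05 to 0.69), and with heart muscle level as a covariate it was 0.49. The end of Dbp overlaps Sphk2, a sphingosine kinase gene on the opposite strand, by 737 bases, and Sphk2 had 34.2 ± 2.14 CPM in knockdown-labelled and 33.7 ± 2.31 CPM in WT lungs (SD, n = 3 each). Tef, its relative, had 283, 202 and 200.2 CPM in knockdown-labelled replicates, against 259, 262 and 252 CPM in WT replicates. Knockdown-labelled replicate 1 was above and replicates 2 and 3 below all WT libraries, and the log2 fold change was -0.17 (95% confidence interval -0.51 to 0.16). It was -0.35 without knockdown-labelled replicate 1, -0.09 without either of the other knockdown-labelled libraries, and with heart muscle level as a covariate it was -0.01.

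The Per genes, which encode repressors of CLOCK and BMAL1, had no common direction. Per1 had 276, 271 and 261 CPM in knockdown-labelled and 262, 282 and 269 CPM in WT replicates 1 to 3, or on the log2 scale a difference of -0.01 (95% confidence interval -0.17 to 0.15). The groups covered the same range. Per1 is also known as a direct target of the glucocorticoid receptor and of cAMP signalling.
Per2 had 126, 110.0 and 111 CPM in knockdown-labelled and 126, 141 and 119 CPM in WT replicates. Only knockdown-labelled replicate 1 entered the WT range, and the log2 fold change was -0.16 (95% confidence interval -0.37 to 0.06). It was -0.09 without WT replicate 2 and -0.01 with heart muscle level as a covariate. Per3, the member that is dispensable for rhythms in the mouse, had 116, 90.4 and 79.6 CPM in knockdown-labelled and 88.2, 92.0 and 65.9 CPM in WT replicates. Its spread inside each group was the widest of the 3 Per genes, and the log2 fold change of 0.22 had an interval of -0.20 to 0.63 (95% confidence). That difference was 0.06 without knockdown-labelled replicate 1, 0.08 without WT replicate 3, and 0.57 with heart muscle level as a covariate. Per3 lies inside the coordinates of Camta1 on the same strand, and Camta1 had 41.1 ± 9.80 CPM in knockdown-labelled and 26.4 ± 4.36 CPM in WT lungs (SD, n = 3 each).

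The Cry genes, whose proteins are the stronger direct repressors, overlapped between the groups as well. Cry1 had 42.1, 33.3 and 32.9 CPM in knockdown-labelled and 37.8, 39.5 and 34.3 CPM in WT replicates 1 to 3, or on the log2 scale a difference of -0.04 (95% confidence interval -0.32 to 0.23). Cry2 had 94.2, 78.1 and 76.6 CPM in knockdown-labelled and 76.1, 86.7 and 76.7 CPM in WT replicates, or on the log2 scale a difference of 0.06 (95% confidence interval -0.19 to 0.30). In both genes knockdown-labelled replicate 1 was above all WT libraries. The sign was not stable for 3 genes near 0. Per1 turned to 0.0055 with totals without the 20 most abundant genes, Cry1 to 0.15 with heart muscle level as a covariate, and Cry2 to -0.035 without knockdown-labelled replicate 1.

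**Figure D3:**
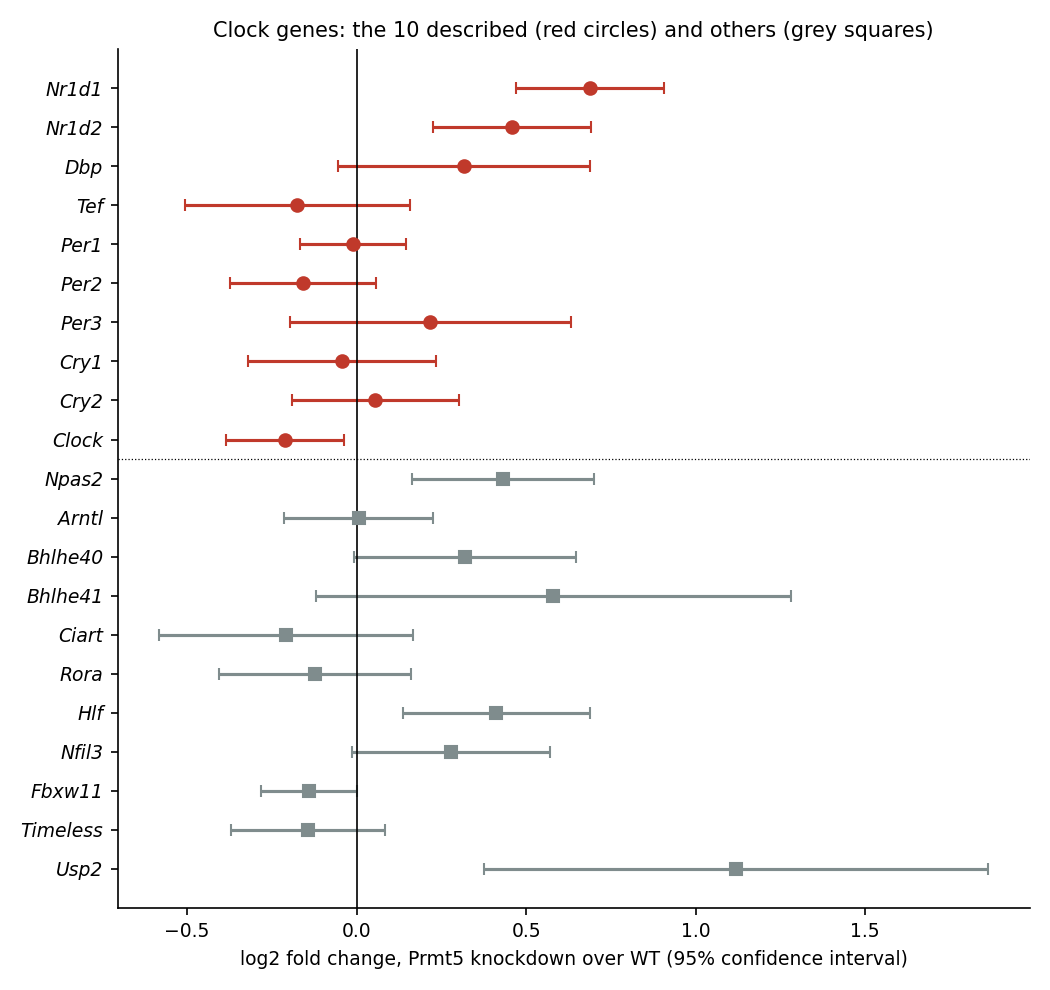
Log2 fold change of clock genes, Prmt5 knockdown over WT, with 95% confidence intervals from edgeR. Red circles are the 10 genes described, which were chosen by their fold changes, and grey squares are other clock genes. The intervals of Nr1d1 (0.47 to 0.91), Nr1d2, Npas2, Hlf and Usp2 lie above 0 and that of Clock (-0.38 to -0.04) lies below it. Intervals are per gene and not adjusted. At an unadjusted edgeR p under 0.05, 8.48% of all genes tested were higher and 8.52% lower.

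Levels between genes were compared per length, in the deposited FPKM. In each of the 6 libraries the order was Per1, Tef, Per2, Cry2, Cry1 and Per3 from the top, and Dbp was the lowest of the 10. Per1 averaged 47.8 ± 1.27 FPKM in knockdown-labelled and 47.8 ± 1.62 FPKM in WT lungs, and Dbp 3.96 ± 0.468 FPKM in knockdown-labelled and 3.15 ± 0.409 FPKM in WT lungs (SD, n = 3 each). The lower ranks differed by group. Clock was ninth in every knockdown-labelled library, at 5.96 to 6.12 FPKM, and seventh in every WT library, at 6.61 to 7.46 FPKM. Nr1d2 and Nr1d1 stood at 6.32 to 8.22 and 6.6 to 6.92 FPKM in knockdown-labelled libraries, above Clock, and at 5.27 to 5.37 and 4.08 to 4.27 FPKM in WT libraries, below it. Among neighbours in the order, the ranges of Cry2 and Cry1, of Cry1 and Per3, and of Nr1d2 and Nr1d1 overlapped within the knockdown-labelled group. Within WT, Per3 and its neighbour Clock overlapped.

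Inside their groups the 10 genes tended to be high or low in the same library. Knockdown-labelled replicate 1 was the highest of its group for 8 of the 10, beside 35.1% of all genes tested, and replicate 3 the lowest for 7, beside 34.3%. WT replicate 2 was the highest WT library for 9 of the 10 genes, beside 34.7%, and WT replicate 3 the lowest for 8, beside 35.5%. Of 45 pairs of the genes 44 had a positive correlation of their deviations from the group means over the 6 libraries, with a median Pearson r of 0.69 and a range from -0.14 to 0.99. Per2 and Dbp were the closest pair, and Nr1d1 and Nr1d2 the pair below 0. Such deviations share library and depth, and with 2 groups of 3 they are a description only. The pairs share genes and are not independent, and no share over all gene pairs is given beside them.

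**Figure D4:**
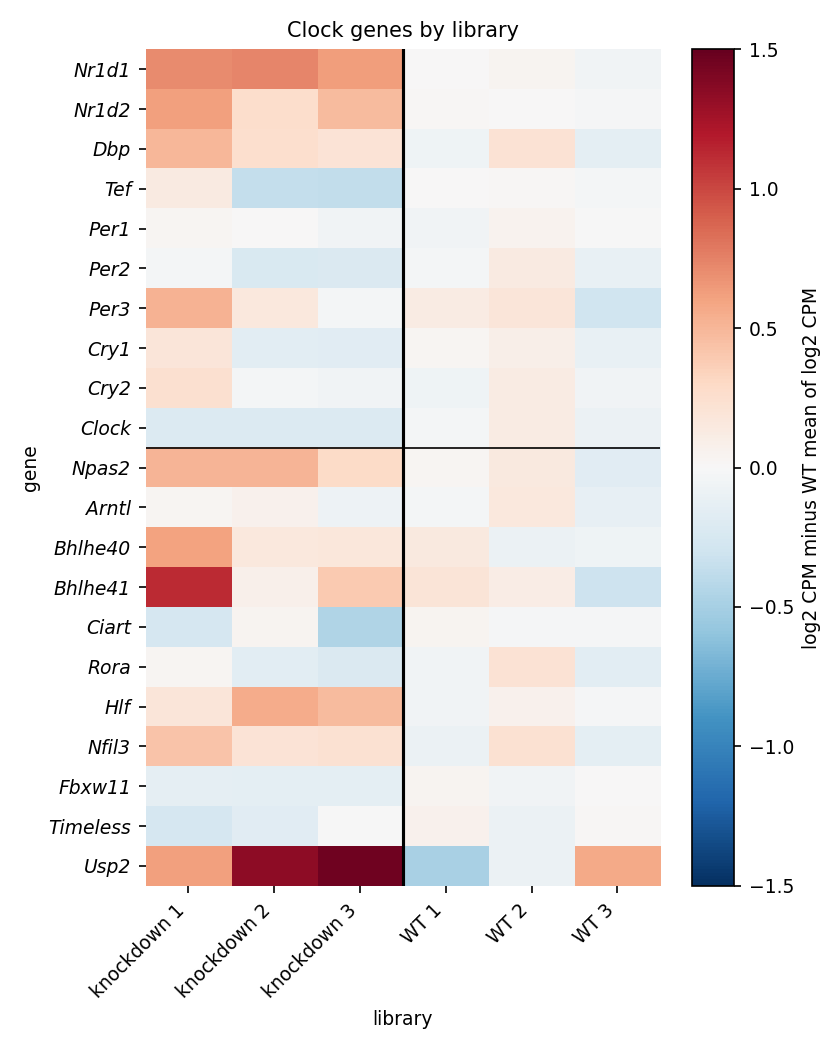
Log2 CPM of each clock gene minus its mean over the WT libraries, with the 10 genes described above the line and other clock genes below it; columns are libraries, knockdown-labelled ones at the left. Nr1d1 is raised in all 3 knockdown-labelled columns, while Tef, Per3, Cry1 and Cry2 are higher in knockdown-labelled replicate 1 than in replicates 2 and 3.

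The clock genes outside the 10 were taken from a list of 28, by role. Of these 0 passed an adjusted p of 0.05 in edgeR. At an unadjusted p under 0.05 there were 3 higher (10.7%) and 1 lower (3.57%), beside 8.48% and 8.52% of all genes tested, and DESeq2 called 1 higher. Groups did not overlap for 4 higher genes (14.3%) and 2 lower ones (7.14%), beside 10.8% and 12.4% of all genes. The shares were thus near those of all genes, and the list's median log2 fold change was 0.01.

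Among the activators, Npas2, the relative of Clock that can take its place beside BMAL1, had 29.1, 29.2 and 24.9 CPM in knockdown-labelled replicates 1 to 3, against 20.8, 22.6 and 18.3 CPM in WT replicates. The groups did not overlap, and the log2 fold change was 0.43 (95% confidence interval 0.16 to 0.70, edgeR adjusted p = 0.169). Arntl, the gene of BMAL1, had 33.0, 33.9 and 30.7 CPM in knockdown-labelled and 31.6, 35.9 and 29.7 CPM in WT replicates, or on the log2 scale a difference of 0.01 (95% confidence interval -0.21 to 0.23, edgeR adjusted p = 0.984). Clock and Npas2, which encode alternative partners of BMAL1, thus lay outside the WT range in opposite directions, while Arntl overlapped. Rora, the gene of a receptor that opposes REV-ERB at its sites, had 28.5 ± 2.53 CPM in knockdown-labelled and 31.0 ± 4.26 CPM in WT lungs (SD, n = 3 each, edgeR adjusted p = 0.659).

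The other repressors also gave no call. Bhlhe40 and Bhlhe41 encode DEC1 and DEC2, which compete at E-boxes. Bhlhe40 had 126, 92.6 and 93.0 CPM in knockdown-labelled and 92.1, 78.2 and 79.2 CPM in WT replicates, with no overlap but a narrow gap (edgeR adjusted p = 0.303). Its log2 fold change was 0.32, and 0.17 without knockdown-labelled replicate 1. Bhlhe41 had 13.5, 6.51 and 8.15 CPM in knockdown-labelled and 7.11, 6.71 and 5.00 CPM in WT replicates, and knockdown-labelled replicate 1 stood well above the other 5 libraries. Ciart, which encodes another repressor of CLOCK and BMAL1, had 9.09 ± 1.55 CPM in knockdown-labelled and 10.5 ± 0.235 CPM in WT lungs (SD, n = 3 each, edgeR adjusted p = 0.558).

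Of the bZIP genes, Hlf, the third PAR bZIP member beside Dbp and Tef, had 20.7, 26.9 and 25.3 CPM in knockdown-labelled replicates 1 to 3, against 17.7, 19.1 and 18.1 CPM in WT replicates. It was higher in all 3 knockdown-labelled libraries (log2 fold change 0.41, 95% confidence interval 0.14 to 0.69, edgeR adjusted p = 0.182). Nfil3, whose product competes with PAR bZIP proteins at D-boxes, had 33.5, 28.7 and 29.2 CPM in knockdown-labelled and 23.4, 29.3 and 22.6 CPM in WT replicates (edgeR adjusted p = 0.309). WT replicate 2 lay inside the knockdown-labelled range.
Fbxw11, an F-box gene of the ubiquitin ligase that marks PER proteins, was lower in every knockdown-labelled library, at 99.8 to 100.4 CPM against 107 to 114 CPM in WT (edgeR adjusted p = 0.296). Timeless had 23.4 ± 2.08 CPM in knockdown-labelled and 25.8 ± 1.41 CPM in WT lungs (SD, n = 3 each, edgeR adjusted p = 0.504). Tspan4, named after its values were seen because it was the lower gene at an unadjusted p under 0.05, had a log2 fold change of -0.21 (edgeR adjusted p = 0.271).

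Usp2, a deubiquitinase gene whose transcript cycles in many mouse organs, had 18.96, 31.4 and 33.9 CPM in knockdown-labelled replicates 1 to 3, against 8.84, 11.7 and 18.3 CPM in WT replicates. Knockdown-labelled replicate 1 and WT replicate 3 nearly met. The log2 fold change was 1.12 (95% confidence interval 0.37 to 1.86, edgeR adjusted p = 0.180), and DESeq2 gave an adjusted p of 0.00946. Summed heart muscle markers did not follow Usp2 in the knockdown-labelled group, where replicate 3 had the most Usp2 and the least heart muscle RNA, 3314 CPM, while in WT replicate 3 had the most of both. Replicate 3 of each group also had the most skeletal muscle RNA, 3861 CPM in the knockdown-labelled and 1657 CPM in the WT library. Replicates 1 and 2 had 858 and 510 CPM of it in the knockdown-labelled and 287 and 84.5 CPM in the WT group. In both groups replicate 2 thus had less skeletal muscle RNA than replicate 1, and more Usp2. With heart muscle level as a covariate the Usp2 difference was 0.47 on the log2 scale. The part of heart or skeletal muscle in the Usp2 difference was not tested further.

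Ratios of FPKM taken inside a library do not depend on its depth. Nr1d1 to Arntl, a repressor and its known target, was 1.57, 1.55 and 1.59 in knockdown-labelled replicates 1 to 3, against 1.01, 0.909 and 1.03 in WT replicates. Npas2 to Clock was 1.01, 1.00 and 0.861 in knockdown-labelled and 0.636, 0.622 and 0.579 in WT replicates. Dbp to Tef was 0.124, 0.146 and 0.143 in knockdown-labelled and 0.0914, 0.110 and 0.0888 in WT replicates. In these 3 ratios every knockdown-labelled library was above every WT one. Per2 to Per1 was 0.438, 0.390 and 0.408 in knockdown-labelled and 0.463, 0.481 and 0.425 in WT replicates, and there the groups overlapped. Of the other ratios taken, Dbp to Arntl and Nr1d1 to Thra were also higher in every knockdown-labelled library. Nr1d2 to Nr1d1 was lower in every one, as was Cry1 to Cry2 by a very narrow gap, and Per3 to Per1 overlapped. The pairs were picked after the levels were seen, so the ratios restate those levels without a test.

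**Figure D5:**
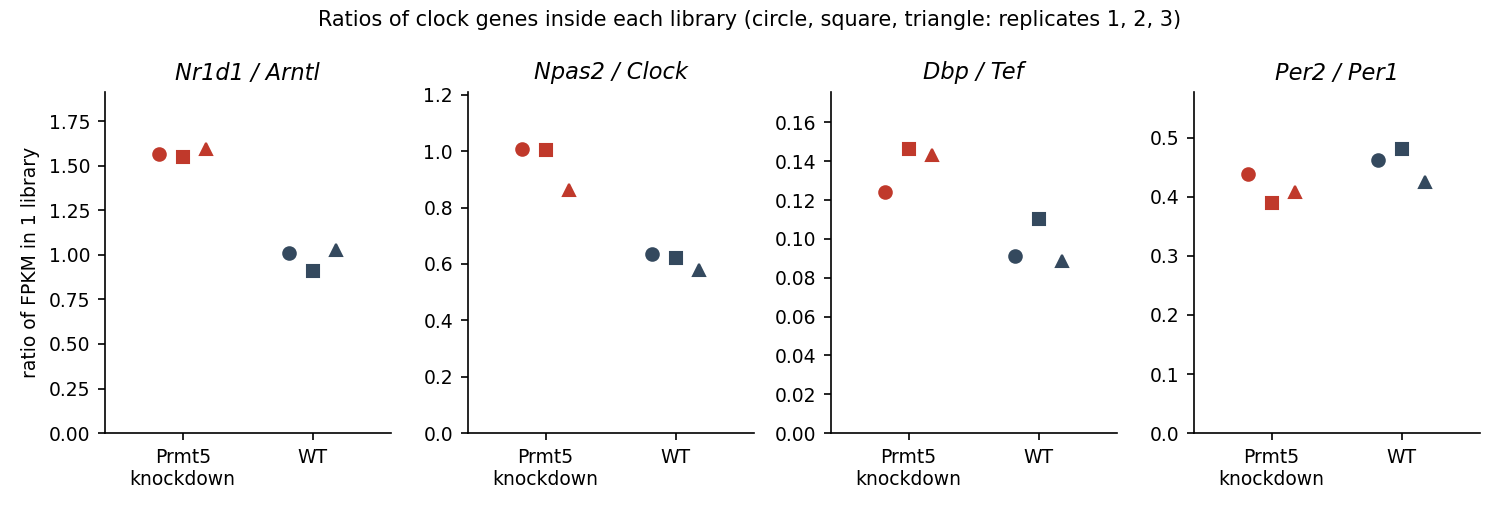
Ratios of FPKM of 4 pairs of clock genes inside each library (axes from 0), Prmt5 knockdown libraries in red and WT libraries in dark blue. Nr1d1 to Arntl is 1.55 to 1.59 in knockdown-labelled and 0.909 to 1.03 in WT libraries, and Per2 to Per1 overlaps.

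The transcripts most like the clock genes over the 6 libraries were not clock genes. For the mean standardised profile of the 9 genes other than Clock, the 5 highest Pearson correlations among 17718 genes were those of Acss2 (0.994), Mapkapk2 (0.994), Ncf1 (0.992), Atp6v1b2 (0.992) and Ccdc68 (0.989), and 96 genes were above 0.95. Csnk1e, the casein kinase 1 epsilon gene whose product phosphorylates PER proteins, ranked 12th at 0.987 and was the closest of the 28 other clock genes. For Clock the 5 were Gins3, Lhx6, Fut4, Skil and 1110002L01Rik, at 0.990 to 0.997, and 65 genes were above 0.95. With 6 points that share depth and group, many genes reach such values.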

How the data were processed

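Poly(A) RNA of 6 whole lungs was sequenced as paired ends, per the labels' protocols. Tools listed in the submitters' processing notes, with no role stated, are HTSeq 0.6.1, HISAT2 2.0.1 and cutadapt 1.9.1. No source used here gives the build or the strand setting. Per the file headers, each gene has a count and an FPKM value made by the authors, and the FPKM differ by at most 0.005 from values recomputed from count, total and exonic length. The genes and lists were chosen with earlier results of these data known. Named genes are the 10 clock genes, a fixed set of other core clock genes, Prmt5, the smallest p of each role and the 5 most correlated genes; 1 of the other clock genes is counted in its list and not reported here by name.

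edgeR 4.0.16 in R 4.3.3 was run on counts (filterByExpr, TMM, group as the only term), two-sided, with Benjamini-Hochberg adjustment over 17728 genes and a threshold of 0.05. CPM were scaled by TMM. Correlations used log2 CPM with a prior count of 2. An exact test of 3 against 3 cannot go below p = 0.1 and was not used. Alternatives were DESeq2 1.42.0, limma 3.58.1 on log2(FPKM + 1) where the mean FPKM reached 1, other scalings and filters, covariates for embryo sex and heart muscle, a threshold of 0.10 and leaving out each library. On counts simulated for this comparison with 17472 genes, edgeR recovered 56.7% of genes changed by 1 and 91.8% of those changed by 2 on the log2 scale, with 16 false calls among 160; DESeq2 made 53 among 212.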

Additional observations from a re-analysis of the deposited data

How the results depend on the processing

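The counts of called clock genes stayed at 0 of 10 and 0 of 28 in edgeR with every scaling, covariate and left-out library tried and with no filter. With a mean of at least 50 counts, and in limma on FPKM, they were 0 of 10 and 0 of 25, since 3 of the 28 had no test there. DESeq2 called 2 of the 10 (Nr1d1 and Nr1d2) and 1 of the 28 (Usp2), and at an adjusted p under 0.10 edgeR called 1 of the 10, Nr1d1. Over all genes edgeR called 6, against 854 by DESeq2, 81 with no filter, 0 with embryo sex as a covariate (2524 at an unadjusted p under 0.05), 2 with heart muscle level as a covariate, 96 at 0.10 and 0 to 17 with a library left out. The count was 1 without knockdown-labelled replicate 3, 17 without WT replicate 3 and 0 without each of the other libraries (1663 to 3287 at an unadjusted p under 0.05). The cause was not tested. Of 22 genes followed by name 16 kept their direction in every alternative run. Nr1d1 ranged from 0.59 to 0.72 on the log2 scale and Nr1d2 from 0.38 to 0.63. Without knockdown-labelled replicate 1 Bhlhe41 was 0.24 (0.58 with all libraries) and Timeless -0.078 (-0.14), and without knockdown-labelled replicate 3 Ciart was -0.097 (-0.21). Directions near 0 turned. Per1 was 0.0015 in limma, 0.0055 with totals without the 20 most abundant genes, 0.0049 with embryo sex, and -0.034 to 0.018 with a library left out. With heart muscle level Cry1 was 0.15 and Rora 0.042. With a library left out Cry1 ranged from -0.16 to 0.021, Cry2 from -0.035 to 0.12, Arntl from -0.050 to 0.085 and Prmt5 from -0.13 to 0.0069. No paired analysis was possible because nothing in the labels pairs a knockdown-labelled library with a WT one. Equal replicate numbers mark no pair. Floors of 3 counts were 0.156 to 0.209 CPM, far under the clock genes' levels; they cover counting error only.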

Other observations

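Genes of signals that are known to reach Per1, in 2 lists, were measured beside the clock genes. Of 10 genes known to be induced by glucocorticoids, 0 passed the edgeR test over all genes, DESeq2 called 1 higher (2.33% of all genes it tested), and an unadjusted p under 0.05 was reached by 2 higher genes and 1 lower gene (8.48% and 8.52% of all genes), with a median log2 fold change of 0.11 beside 0.01 over all genes. Mt1, a metallothionein gene, had 49.03, 45.4 and 53.5 CPM in knockdown-labelled replicates 1 to 3, against 31.0, 32.6 and 29.8 CPM in WT replicates (edgeR adjusted p = 0.0780). Mt2, the other metallothionein gene of the list, overlapped, with 17.8, 12.9 and 24.1 CPM in knockdown-labelled and 13.7, 14.9 and 16.1 CPM in WT replicates (edgeR adjusted p = 0.549). Sgk1, a kinase gene of the same list, had 57.7, 88.2 and 57.4 CPM in knockdown-labelled and 86.3, 101 and 101 CPM in WT replicates (edgeR adjusted p = 0.237). Of 8 genes of the cAMP and serum response 0 passed, DESeq2 called 1 higher, and 2, Fos and Egr1, were higher at an unadjusted p under 0.05, beside the same shares of all genes, with a median of 0.32. Egr1 had 27.1, 48.2 and 33.7 CPM in knockdown-labelled and 15.0, 13.7 and 23.1 CPM in WT replicates (edgeR adjusted p = 0.155). All of these genes were named after their values were seen.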
